A study of Mus musculus with 8 samples.

Results

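Open chromatin was described at 45 mouse genes for the extracellular matrix and its receptors: collagens, laminins, other matrix proteins, proteoglycans, integrins and the discoidin domain receptors. They were taken from a list of gene symbols, out of 34328 positioned protein-coding and long noncoding RNA genes. The list fell into 8 roles: 6 fibrillar collagens, 8 network and other collagens, 10 laminins and other basement membrane genes, 5 matrix glycoproteins, 5 proteoglycans, 6 integrin alpha chains, 3 integrin beta chains and 2 collagen receptor kinases. A locus was the annotated gene extended by 10 kb in each direction, on the mm10 build. All 45 loci passed the filter for testing, a minimum of 200 bp under peaks in 2 or more libraries, as did 27938 loci in all.

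Satellite cells are the stem cells of skeletal muscle. They lie between the muscle fibre and the basement membrane, a sheet of type IV collagen and laminin joined by nidogens and heparan sulphate proteoglycans. Cells hold this sheet through integrins, each a pair of an alpha and a beta chain, while the interstitial matrix outside it is built of fibrillar collagens, largely made by fibroblasts. Matrix and integrins are known to take part in keeping satellite cells quiescent and in their response to injury.

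ATAC-seq, which uses the Tn5 transposase to cut DNA where chromatin is open, was carried out on satellite cells of C57BL/6 mice in 4 groups of 2 libraries. Freshly isolated cells formed the QSC group, and cells isolated 2.5 days after an injury formed the ASC group; neither received a treatment. The control siRNA and LncMyod siRNA groups were satellite cells placed in culture for differentiation, and LncMyod is a long noncoding RNA from the region of the gene of the myogenic factor MyoD. The siRNA against LncMyod acted for 48 h before harvest, whereas the sources used here give no time for the control siRNA, no kind of injury and no sorting scheme. Whether the 2 libraries of a group stem from different mice or dishes is not stated in the labels, and the p-values therefore speak of the spread between these libraries, which may be technical. Cultured groups differ from isolated cells in time, culture and exposure to siRNA together, and these cannot be told apart.

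Each library is represented by the authors' list of broad peaks, stretches of DNA with more cuts than their surroundings. Lists held 59666 to 95449 peaks over 42.4 to 64.0 Mb, and carry no read counts, so sequencing depth is unknown, and lack of a peak does not show that DNA was closed. The length covered by peaks at a locus was therefore scaled to the covered total of its library and is given in kb. Median peak width was 588 to 601 bp in the isolated libraries and 489 to 530 bp in the cultured libraries. In these bulk libraries, fewer cells with an open site and less opening per cell cannot be told apart. All 7 satellite cell markers examined, Pax7 among them, had peaks in every library, with a summed covered length of 26.3 to 36.4 kb. The 10 leukocyte markers summed to 8.67 and 9.23 kb in QSC, 15.6 and 13.8 kb in ASC, 20.3 and 19.9 kb in control siRNA and 16.3 and 21.4 kb in LncMyod siRNA. Of these leukocyte loci, 5 rose from QSC to ASC, beside 7.56% of all loci, and 5 from QSC to control siRNA, beside 9.96%. From ASC to control siRNA 1 rose, beside 2.28%. Ptprc, Itgam and Laptm5 were at 0 in both QSC libraries, and Lyz2 was at 0 in 6 of 8 libraries. The 18 markers of fibroadipogenic cells, the main matrix producers of muscle, summed to 46.8 and 46.7 kb in QSC, 55.2 and 47.3 kb in ASC, 42.6 and 46.1 kb in control siRNA and 44.7 and 45.8 kb in LncMyod siRNA. Of them Smoc2 and Cd248 rose from QSC to ASC, beside 7.56% of all loci, and Dpp4 and Apod fell, beside 5.25%. Dpt fell from QSC to control siRNA, beside 6.95%. The part of such cells in the matrix gene results was not tested.

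The starts of several matrix genes are shown first, because they differ in whether peaks covered them. RefSeq promoter windows of 300 bases, 250 before to 50 after a start on GRCm38.p6 (the mm10 coordinates), were found for 30 of the 45 genes, with 38 windows. Capitals mark matches, on either strand, to CAGCTG (an E-box of the kind bound by MyoD), TGANTCA (AP-1), GGAATG (TEAD), CCAAT (NF-Y), GGGCGG (a GC box bound by Sp factors) and TATAAA; no motif contains another, but neighbouring GC boxes may overlap. A match is a description of the letters and not a bound site.
Svep1, chr4:58206547-58206846, minus strand: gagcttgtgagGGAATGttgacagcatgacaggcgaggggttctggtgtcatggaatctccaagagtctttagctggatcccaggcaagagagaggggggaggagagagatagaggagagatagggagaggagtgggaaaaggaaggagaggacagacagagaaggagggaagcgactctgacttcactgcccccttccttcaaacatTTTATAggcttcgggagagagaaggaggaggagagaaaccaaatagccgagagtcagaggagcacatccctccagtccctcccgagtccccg
Postn window 1, chr3:54359017-54359316, plus strand: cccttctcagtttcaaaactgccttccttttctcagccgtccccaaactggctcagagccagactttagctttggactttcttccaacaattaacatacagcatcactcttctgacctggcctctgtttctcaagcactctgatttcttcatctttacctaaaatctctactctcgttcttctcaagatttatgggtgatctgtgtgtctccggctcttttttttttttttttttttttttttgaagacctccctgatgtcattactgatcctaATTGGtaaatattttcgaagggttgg
Postn window 2, chr3:54360857-54361156, plus strand: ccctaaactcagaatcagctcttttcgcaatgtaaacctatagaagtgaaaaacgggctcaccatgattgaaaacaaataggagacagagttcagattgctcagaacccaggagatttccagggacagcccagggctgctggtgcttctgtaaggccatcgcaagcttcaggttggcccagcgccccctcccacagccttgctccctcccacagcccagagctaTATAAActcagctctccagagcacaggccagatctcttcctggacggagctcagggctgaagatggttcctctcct
Bgn, chrX:73483351-73483650, plus strand: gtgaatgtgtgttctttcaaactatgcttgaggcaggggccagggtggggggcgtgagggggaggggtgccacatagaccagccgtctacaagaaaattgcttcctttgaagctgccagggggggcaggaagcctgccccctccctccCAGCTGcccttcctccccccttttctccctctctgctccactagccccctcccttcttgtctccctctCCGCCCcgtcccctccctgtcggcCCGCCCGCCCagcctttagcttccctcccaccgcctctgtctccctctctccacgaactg
Ddr1 window 2, chr17:35704090-35704389, minus strand: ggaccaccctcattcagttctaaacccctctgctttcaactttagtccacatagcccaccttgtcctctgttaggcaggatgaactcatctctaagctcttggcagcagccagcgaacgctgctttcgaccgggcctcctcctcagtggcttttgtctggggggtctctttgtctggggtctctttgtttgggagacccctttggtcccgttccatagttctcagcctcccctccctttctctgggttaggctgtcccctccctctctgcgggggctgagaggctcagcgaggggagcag
Col4a1, chr8:11312777-11313076, minus strand: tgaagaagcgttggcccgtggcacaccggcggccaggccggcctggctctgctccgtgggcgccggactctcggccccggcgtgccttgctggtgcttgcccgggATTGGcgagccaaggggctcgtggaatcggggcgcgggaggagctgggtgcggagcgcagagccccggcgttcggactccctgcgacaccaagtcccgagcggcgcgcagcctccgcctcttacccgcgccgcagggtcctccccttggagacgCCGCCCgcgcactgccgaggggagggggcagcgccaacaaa
Col4a2, chr8:11312555-11312854, plus strand: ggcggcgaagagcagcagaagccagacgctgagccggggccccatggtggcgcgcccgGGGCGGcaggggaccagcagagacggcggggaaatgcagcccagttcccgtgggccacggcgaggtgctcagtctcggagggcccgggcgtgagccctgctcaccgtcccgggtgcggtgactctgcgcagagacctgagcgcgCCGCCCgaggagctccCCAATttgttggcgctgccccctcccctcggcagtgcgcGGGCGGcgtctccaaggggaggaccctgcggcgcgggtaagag

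Peaks overlapped 25 of the 38 windows in all 8 libraries, or 65.8%, against 40.6% of 32851 windows in the whole table. Windows are not independent, since those of Tnc and of Col6a2 overlap each other. By gene, 22 of the 30 had a window overlapped in all 8 libraries. The head-to-head pair Col4a1 and Col4a2, which encode the chains of the main type IV collagen and whose windows overlap by 78 bases on opposite strands, was among them. The GC box stood in 65.8% of the matrix gene windows and 35.7% of all windows. The shares were 23.7% and 16.3% for CAGCTG, 10.5% and 7.81% for TGANTCA, 13.2% and 14.7% for GGAATG, 26.3% and 37.4% for CCAAT and 15.8% and 13.6% for TATAAA.

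Few windows separated the groups. The Bgn window was overlapped in QSC 2, both control siRNA libraries and LncMyod siRNA 1, and in neither ASC library. Ddr1 window 2 was overlapped in both control siRNA libraries and LncMyod siRNA 1, and in no QSC or ASC library. Postn window 1, which holds a CCAAT match on the minus strand, was overlapped in every library except ASC 2. Postn window 2, with TATAAA 26 bases before the start, was overlapped in QSC 1 alone. The Svep1 window was overlapped in 6 libraries, without control siRNA 2 and LncMyod siRNA 1. A total of 6 windows had no peak in any library, among them the single windows of Nid1, Col6a3, Itga9 and Ddr2, of which the latter pair belong to starts inside the annotated gene.

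**Figure D1:**
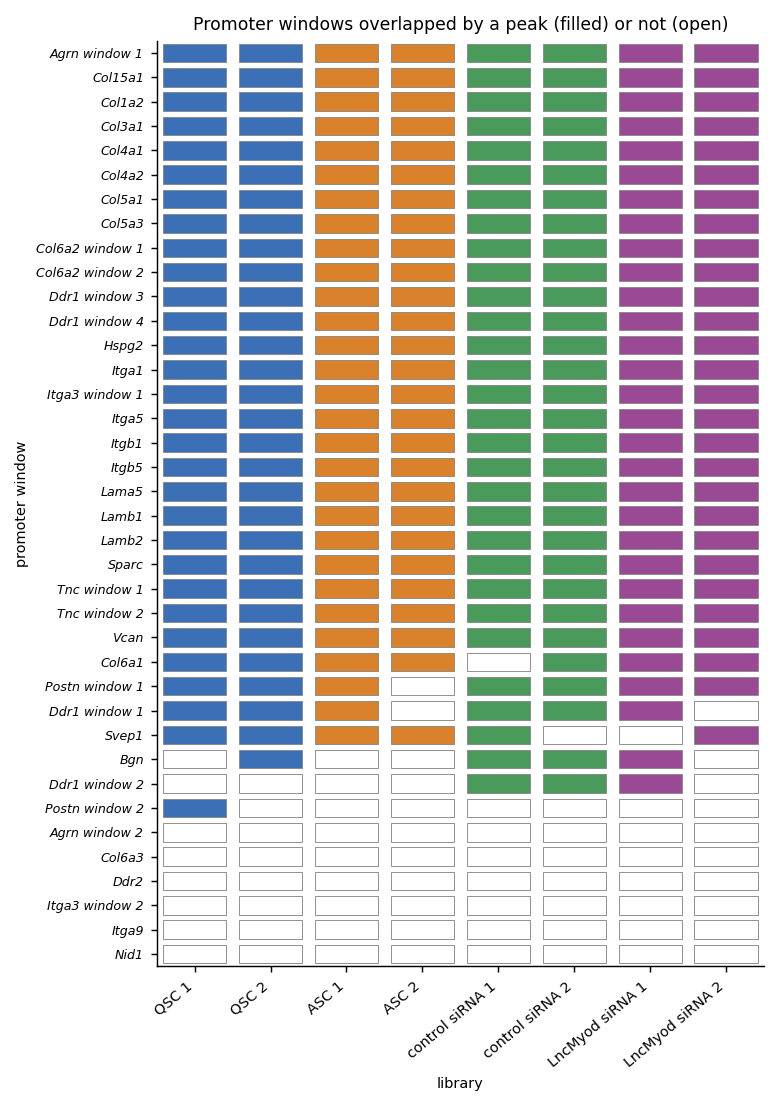
Rows are the 38 RefSeq promoter windows of matrix genes, columns the 8 libraries coloured by group; a filled box means that at least 1 bp of the window lay in a peak and an open box that none did. Filled rows span all 8 libraries for 25 windows, and Bgn, Ddr1 window 2 and Postn window 2 are filled in 4, 3 and 1 libraries.

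The density of open chromatin differed widely between matrix genes. Averaged over the 8 libraries, peaks covered 4.33% of the summed matrix gene loci. Itga7, the alpha chain of the laminin receptor of muscle, had 13.7% of its locus covered, Lama5 12.6%, Sparc, a collagen-binding glycoprotein, 12.5%, and Col4a2 10.5%. At the other end stood Lum with 0.473% and Dcn with 0.671%, both small leucine-rich proteoglycans of fibroblasts, then Lama4 with 0.802% and Gpc6 with 0.856%. Lum was at 0 in 5 of 8 libraries, whereas the other 44 loci had a peak in every library. By role, the share ran from 1.27% for proteoglycans to 7.001% for collagen receptor kinases. Most of the summed proteoglycan length is the Gpc6 locus of 1075 kb, and the other proteoglycan loci ran from 0.473% (Lum) to 8.43% (Bgn). The loci of 21 of the 45 genes also touched another protein-coding gene, whose peaks cannot be told apart from their own.

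Freshly isolated cells were first set against cells taken 2.5 days after injury. From QSC to ASC, covered length rose at Gpc6, Itga9 and Vcan and fell at Svep1, Postn and Bgn, and the other 39 matrix gene loci did not pass an adjusted p of 0.05 (limma with Benjamini-Hochberg adjustment over all loci). The 3 that rose stand beside 7.56% of all 27938 loci, and the 3 that fell beside 5.25%. Together they made up 13.3% of the list, beside 12.8% of all loci, a share near the background and so not a result about the list. The median log2 change was -0.03 over the matrix genes and 0.06 over all loci, and 14 matrix loci (31.1%) had an unadjusted p under 0.05, beside 28.1% of all. Over all loci, 2112 rose and 1468 fell, a split that became 1617 and 1726 with quantile normalization. Without QSC replicate 1 or 2, 1 matrix locus passed (Svep1), and without ASC replicate 1 or 2, 3 did.

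Svep1 encodes a large secreted adhesion protein that binds integrin alpha 9 beta 1. Its gene spans chr4:58042796-58206596, and covered length was 6.44 and 6.15 kb in QSC, 1.81 and 1.96 kb in ASC, 2.69 and 2.63 kb in control siRNA and 2.258 and 2.11 kb in LncMyod siRNA. Both QSC libraries were far above the other 6, and no group overlapped QSC. The means of 6.30 ± 0.210 kb in QSC and 1.89 ± 0.108 kb in ASC (SD, n = 2 each) differed by -1.51 on the log2 scale (SE 0.11, limma adjusted p = 0.00187). Of its 15 merged regions, 4 were held by both QSC libraries and no other library: chr4:58200830-58201385, chr4:58174211-58174963 and chr4:58168426-58168895 inside the gene, and chr4:58039455-58039885 beyond its end. The first had the authors' fold enrichments of 6.56 and 7.999 in QSC 1 and QSC 2. The region over the start, chr4:58205762-58206839, was held by all 8 libraries. A region inside the gene, chr4:58097777-58098292, showed another order: it had folds of 8.66 and 6.72 in control siRNA, 4.75 and 4.09 in LncMyod siRNA and 2.76 in ASC 1, and was not held in QSC or ASC 2. Folds are relative to the background of each library and were not scaled between libraries. Their median over all peaks was 4.32 and 4.01 in control siRNA and 3.45 and 3.31 in LncMyod siRNA. It was 3.91 and 3.76 in QSC and 3.85 and 3.32 in ASC. In all alternatives and with any 1 library left out, Svep1 passed the threshold in this comparison.

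**Figure D2:**
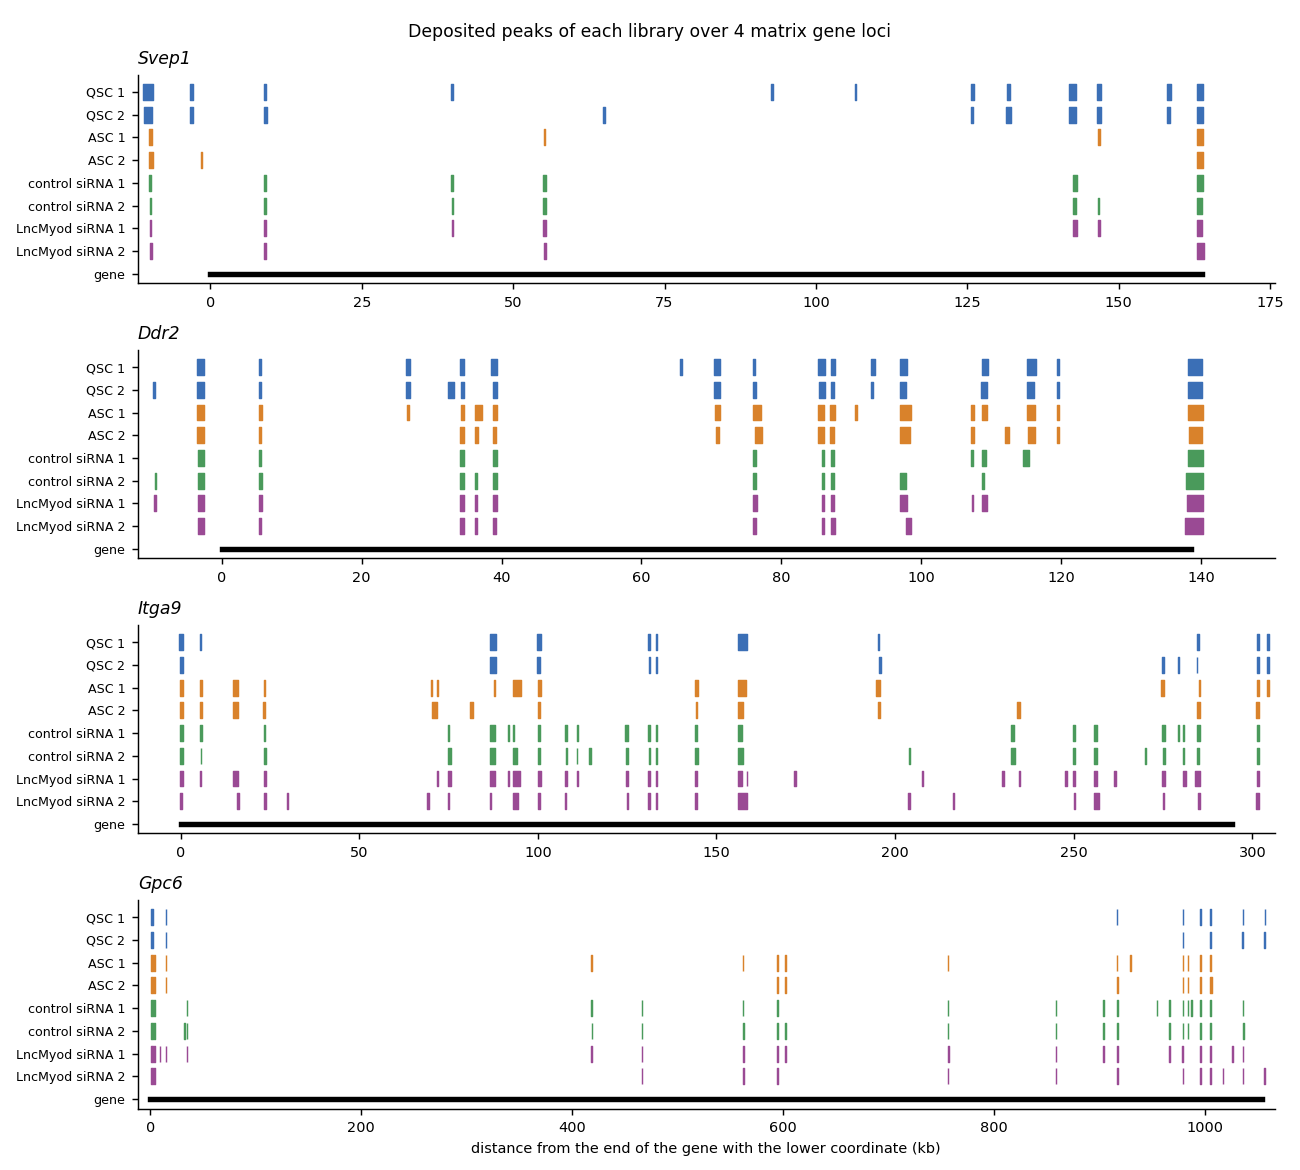
Each panel shows 1 locus, with distance in kb from the end of the gene with the lower coordinate on the horizontal axis, 8 rows of peaks coloured by group, and the gene as a black bar. At Svep1 the QSC libraries had 12 and 10 peaks and the ASC libraries 4 and 3; at Itga9 and Gpc6 the cultured groups had the most peaks, and at Ddr2 the isolated cells did.

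The integrin chain that pairs with beta 1 to bind Svep1 changed the other way. Itga9, on chr9:118606709-118901003, had 8.93 and 6.77 kb covered in QSC, 12.04 and 13.3 kb in ASC, 13.9 and 14.8 kb in control siRNA and 16.3 and 13.8 kb in LncMyod siRNA. QSC lay below all other libraries. The change from QSC to ASC was 0.67 (SE 0.15, limma adjusted p = 0.0306), and the adjusted p was 0.0514 to 0.156 when any 1 of these 4 libraries was left out. With peaks of a −log10 q of at least 5 alone, the change turned to -0.43 (limma adjusted p = 0.381). The region chr9:118750718-118751484 was held by every library outside QSC, with folds of 6.64 and 5.53 in ASC, 7.85 and 6.26 in control siRNA and 7.22 and 5.62 in LncMyod siRNA. Both ASC libraries alone held chr9:118676873-118678434.

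Gpc6 encodes a glypican, a heparan sulphate proteoglycan anchored to the cell surface, in a gene of 1055 kb at chr14:116924920-117979529. Covered length was 5.47 and 5.51 kb in QSC, 9.68 and 9.12 kb in ASC, 11.6 and 11.8 kb in control siRNA and 11.1 and 9.30 kb in LncMyod siRNA. QSC was below all other libraries, by 0.72 on the log2 scale against ASC (SE 0.11, limma adjusted p = 0.00934). Without QSC replicate 1 or 2 the adjusted p was 0.0621 or 0.0676, and without scaling it was 0.134. The regions chr14:117519271-117520171 and chr14:116928498-116929252 were held by all 6 libraries outside QSC. Folds at chr14:117527075-117527578 were 8.53 and 8.07 in ASC, 3.60 in control siRNA 2 and 4.24 in LncMyod siRNA 1, and the other libraries did not hold it.

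Vcan encodes versican, a large chondroitin sulphate proteoglycan of provisional matrix (chr13:89655309-89743027). Its covered length was 3.10 and 3.54 kb in QSC, 5.32 and 4.73 kb in ASC, 4.58 and 4.21 kb in control siRNA and 3.51 and 3.74 kb in LncMyod siRNA. ASC was highest, and LncMyod siRNA overlapped QSC. The change was 0.53 (SE 0.12, limma adjusted p = 0.0315), with 0.0650 to 0.143 when 1 of the 4 libraries was left out, and -0.12 when peaks were counted in place of length. It passed in 4 of 11 alternative settings. The region chr13:89669718-89671396 was held by all libraries except those of QSC.

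Postn encodes periostin, a matrix protein of injured tissue (chr3:54359267-54391041), and Bgn encodes biglycan, a small leucine-rich proteoglycan (chrX:73483601-73495936). Covered length at Postn was 1.78 and 2.69 kb in QSC, 0.886 and 0.637 kb in ASC, 1.57 and 0.832 kb in control siRNA and 1.38 and 1.60 kb in LncMyod siRNA, and only control siRNA 2 came below an ASC library. Postn had 2 merged regions and none specific to a group. Much of its difference lay in the length covered in the region over the start, chr3:54357643-54361102. Peaks covered 1387 and 2005 bp there in QSC and 602 and 527 bp in ASC, unscaled. Both QSC libraries and ASC 1 also had a peak elsewhere in the locus, and ASC 2 had none. At Bgn the values were 2.91 and 4.97 kb in QSC, 1.56 and 1.23 kb in ASC, 2.62 and 3.75 kb in control siRNA and 2.96 and 1.81 kb in LncMyod siRNA. ASC was below all other libraries. The region over the Bgn start, chrX:73483538-73485204, was held by QSC, control siRNA and LncMyod siRNA 1, while chrX:73486933-73487797 and chrX:73490061-73490439 were held in QSC alone. The changes from QSC to ASC were -1.10 for Postn (SE 0.26, limma adjusted p = 0.0396) and -1.20 for Bgn (SE 0.30, limma adjusted p = 0.0430). Neither passed with any 1 of the 4 libraries left out: the adjusted p was 0.0744 to 0.227 for Postn and 0.0785 to 0.238 for Bgn. With a replicate block it was 0.0602 for Postn and 0.0654 for Bgn, and the Bgn locus also touches Atp2b3. Of 11 alternative settings with all libraries kept, Postn passed in 5 and Bgn in 4.

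**Figure D3:**
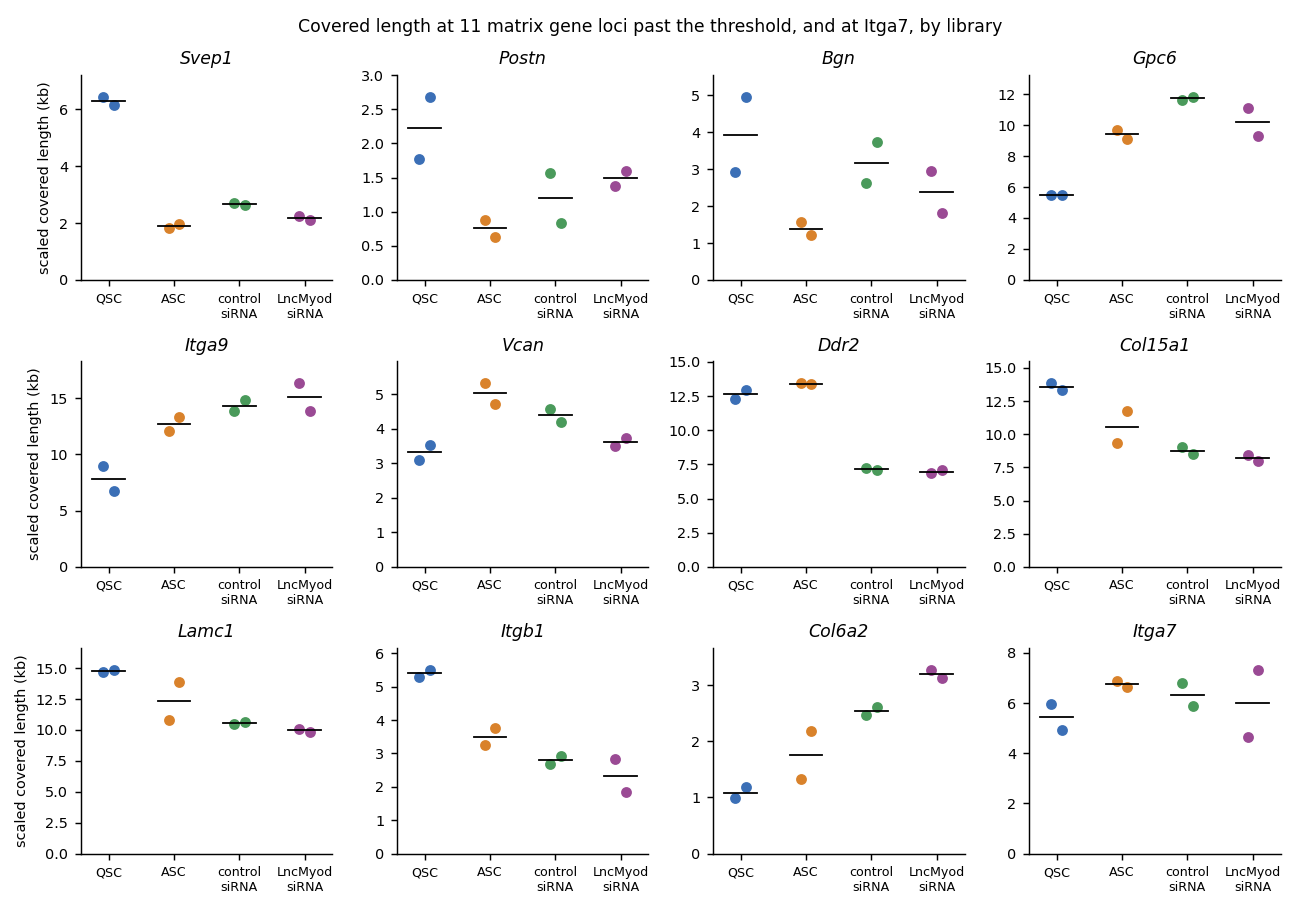
Covered length in kb, scaled to the library total, at the 11 matrix gene loci past the threshold in any comparison, and at Itga7 for comparison; each point is a library, each line a group mean of 2, and each vertical axis starts at 0. QSC stands above the other groups at Svep1 and below them at Gpc6 and Itga9, and at Ddr2 both isolated groups lie above both cultured groups.

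Cultured control cells were next compared with the same QSC libraries, so the values share them with those above and are set side by side. At 8 matrix gene loci (17.8%, beside 16.9% of all loci) covered length differed past the threshold. Gpc6, Itga9 and Col6a2 rose, beside 9.96% of all loci, and Svep1, Ddr2, Col15a1, Itgb1 and Lamc1 fell, beside 6.95%. Medians were 0.01 over the list and 0.00 over all loci. The unadjusted p was under 0.05 at 15 matrix gene loci (33.3%), beside 32.0% of all loci, so these shares too lay near the background. Without QSC replicate 1, 4 matrix loci passed, and without QSC replicate 2 or either control siRNA replicate 3 did (Svep1, Gpc6 and Ddr2).

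Gpc6 changed by 1.03 from QSC to control siRNA (SE 0.11, limma adjusted p = 0.00344), against 0.72 from QSC to ASC. Svep1 changed by -1.10 (SE 0.11, limma adjusted p = 0.00318), against -1.51. Itga9 changed by 0.84 (SE 0.15, limma adjusted p = 0.0126), against 0.67; leaving out QSC replicate 2 gave an adjusted p of 0.0778, and leaving out control siRNA replicate 1 or 2 gave 0.0680 or 0.0855. Along Itga9, 5 regions were held by both control siRNA and both LncMyod siRNA libraries and no isolated library, at chr9:118681540-118682416, chr9:118714182-118714777, chr9:118731212-118732066, chr9:118856487-118857030 and chr9:118862328-118863873. In Gpc6, chr14:117390780-117391224 and chr14:117783820-117784418 showed the same holding.

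Ddr2 encodes a receptor tyrosine kinase for fibrillar collagen (chr1:169972307-170110836). Its covered length was 12.3 and 12.95 kb in QSC, 13.4 and 13.4 kb in ASC, 7.21 and 7.11 kb in control siRNA and 6.83 and 7.08 kb in LncMyod siRNA. Isolated and cultured cells did not overlap. The change was -0.78 from QSC (SE 0.08, limma adjusted p = 0.00372) and -0.86 from ASC (SE 0.08, limma adjusted p = 0.0139). Against QSC it passed in all alternatives and with any 1 library left out; against ASC the adjusted p was 0.0664 without ASC replicate 2, 0.109 without control siRNA replicate 1, 0.108 without control siRNA replicate 2 and 0.0861 without scaling. The regions chr1:170042627-170043562, with folds of 6.15 and 6.48 in QSC and 4.26 and 3.05 in ASC, and chr1:170091687-170092025 were held by the 4 isolated libraries alone. Folds at peaks present in all 8 libraries went either way. Near 87.0 kb from the lower gene end they were 4.47 and 4.95 in QSC and 8.62 and 7.76 in control siRNA. Near 85.8 kb they were 4.21 and 4.37 in QSC and 3.47 and 3.42 in control siRNA. Lower covered length is thus not weaker signal at each peak of the locus. Over the start, chr1:170110031-170112573 was held by all 8, with folds of 4.46 to 5.21. The locus also touches Hsd17b7. Ddr1, the related collagen receptor, had 3.60 and 4.15 kb in QSC, 3.04 and 4.92 kb in ASC, 4.44 and 4.58 kb in control siRNA and 3.82 and 4.11 kb in LncMyod siRNA, and passed in no comparison.

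Of the 10 laminin and other basement membrane loci, Lamc1 alone fell from QSC to control siRNA, and the changes of 7 were positive, with a median of 0.12. Lamc1 encodes laminin gamma 1, a chain of most laminins (chr1:153218922-153332786), with 14.7 and 14.8 kb covered in QSC, 10.8 and 13.9 kb in ASC, 10.5 and 10.6 kb in control siRNA and 10.1 and 9.87 kb in LncMyod siRNA. QSC was highest, and the ASC libraries spanned most of the gap. Regions chr1:153235563-153236029 and chr1:153288615-153289294 were held in QSC alone and chr1:153278015-153278569 in QSC and ASC. Col15a1 encodes a collagen that links basement membrane to interstitial matrix (chr4:47207655-47313167), with 13.8 and 13.3 kb in QSC, 9.33 and 11.8 kb in ASC, 9.005 and 8.49 kb in control siRNA and 8.43 and 8.01 kb in LncMyod siRNA. Again QSC stood above all other libraries. The changes from QSC to control siRNA were -0.47 for Lamc1 (SE 0.12, limma adjusted p = 0.0434) and -0.61 for Col15a1 (SE 0.12, limma adjusted p = 0.0186).

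Itgb1 encodes the beta 1 chain shared by most matrix-binding integrins (chr8:128685654-128733579). Covered length was 5.30 and 5.49 kb in QSC, 3.25 and 3.75 kb in ASC, 2.68 and 2.94 kb in control siRNA and 2.82 and 1.86 kb in LncMyod siRNA, with QSC above all other libraries. The change to control siRNA was -0.84 (SE 0.18, limma adjusted p = 0.0214), and that to ASC, at -0.56, did not pass (limma adjusted p = 0.0827). The change to control siRNA passed in 6 of 11 alternative settings, and in the other 5 its adjusted p was 0.110 without scaling, 0.0611 with 50 kb of flank, 0.135 at a −log10 q of at least 5, 0.0525 with lists of equal length and 0.226 by number of peaks (limma). The region over the start and 2 others were held by all 8 libraries, and chr8:128727265-128727729 and chr8:128731527-128732599 by QSC alone. Col6a2 encodes a chain of the microfibrillar type VI collagen (chr10:76595756-76623630), with 0.989 and 1.18 kb in QSC, 1.32 and 2.189 kb in ASC, 2.48 and 2.62 kb in control siRNA and 3.26 and 3.13 kb in LncMyod siRNA. Both cultured groups were above the isolated cells. The change from QSC was 0.94 (SE 0.20, limma adjusted p = 0.0209), but -0.04 with 50 kb of flank on each side. Part of it lay outside the gene at chr10:76591919-76592420, in a locus shared with Ftcd, and part inside at chr10:76602301-76603203; both regions were held by the 4 cultured libraries alone. Without any 1 of the 4 libraries of this comparison, Lamc1, Col15a1, Itgb1 and Col6a2 no longer passed, with an adjusted p of 0.165 to 0.185, 0.0847 to 0.112, 0.0920 to 0.129 and 0.0965 to 0.127. With a replicate block Lamc1 did not pass (limma adjusted p = 0.0534). Of the 11 alternative settings, Lamc1 and Col6a2 passed in 8 each and Col15a1 in 10.

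**Figure D4:**
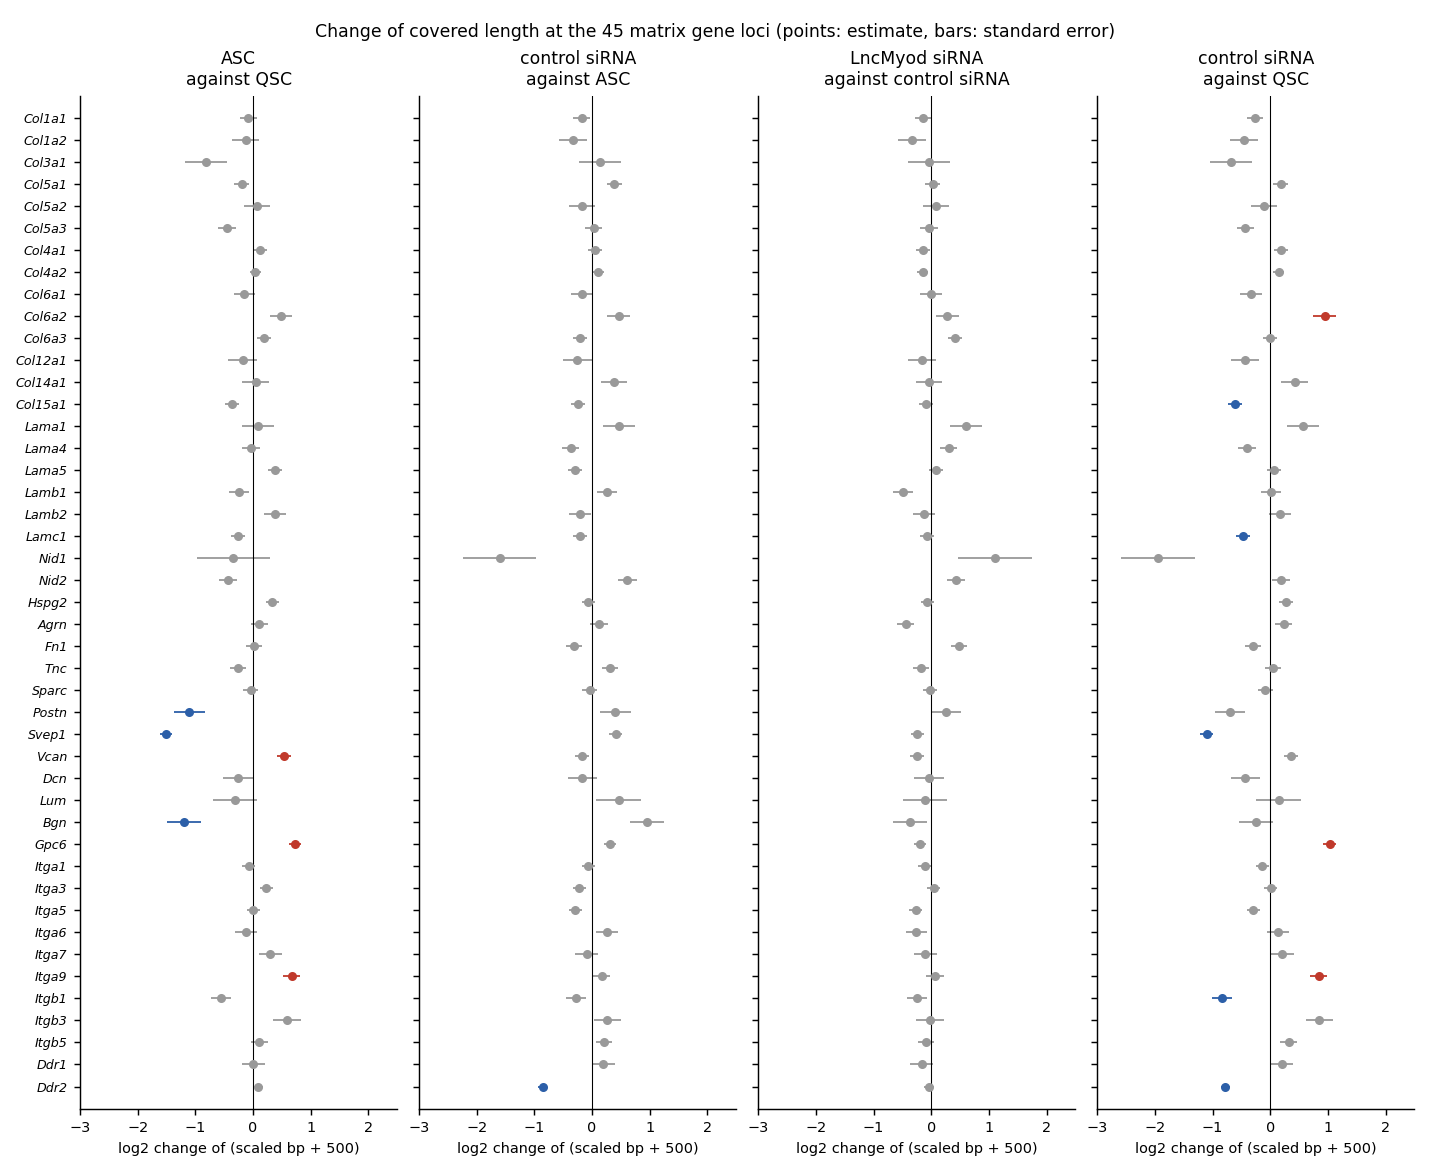
Log2 changes of scaled covered length plus 500 bp for the 45 loci, ordered by role, in the 4 comparisons; bars are standard errors, red points rose, blue points fell and grey points did not pass. Coloured points number 6, 1, 0 and 8 from left to right, and Nid1 has the widest bars.

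Control siRNA cells were also compared with the ASC libraries already used above. Ddr2 was the only matrix gene past the threshold, 1 of 45 (2.22%), beside 3.99% of all loci. Over all loci 636 rose and 480 fell, or 283 and 85 without scaling and 1438 and 1541 with lists of equal length. The median change was -0.04 over the matrix genes and -0.08 over all loci. The unadjusted p was under 0.05 at 10 matrix loci (22.2%), beside 22.3% of all. Next in order of p were Nid2, at 0.61 (SE 0.16, limma adjusted p = 0.0789), and Svep1, at 0.41 (SE 0.11, limma adjusted p = 0.0894). Nid2 encodes nidogen 2, which ties laminin to type IV collagen, and had 3.11 and 2.44 kb in QSC, 2.04 and 1.81 kb in ASC, 3.13 and 3.28 kb in control siRNA and 5.03 and 4.02 kb in LncMyod siRNA. Its relative Nid1 varied most within groups, with 4.06 and 2.28 kb in QSC, 4.59 and 1.05 kb in ASC, 0.509 and 0.347 kb in control siRNA and 0.723 and 2.73 kb in LncMyod siRNA. Both control siRNA libraries had the least, yet the change of -1.60 from ASC had an SE of 0.64 and did not pass (limma adjusted p = 0.200). Region chr13:13487691-13488388 at Nid1 was held by QSC alone, with folds of 4.68 and 5.36, and chr13:13460370-13461701 by the 4 isolated libraries alone.

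Depletion of LncMyod was compared with the control siRNA libraries, which also served above. None of the 45 matrix gene loci passed (limma), beside 0.0215% of all loci, where 6 rose. At an unadjusted p under 0.05 there were 6 matrix loci (13.3%), beside 9.81% of all. The median change was -0.07 over the list and -0.05 over all loci. The lowest p belonged to Fn1, for fibronectin, at 0.48 (SE 0.14, limma adjusted p = 0.342). Fn1 covered 1.46 and 1.45 kb in QSC, 1.37 and 1.60 kb in ASC, 1.04 and 1.15 kb in control siRNA and 1.81 and 1.65 kb in LncMyod siRNA. The LncMyod siRNA libraries were the highest of the 8, and both held chr1:71580449-71580777 outside the gene, which no other library held. The Fn1 locus also touches Atic. When peaks were counted in place of length, Fn1 was the one matrix locus past the threshold, and without LncMyod siRNA replicate 1 the one was Lamb1, for laminin beta 1. Lamb1 had 5.39 and 5.31 kb in control siRNA and 4.54 and 2.97 kb in LncMyod siRNA.

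The roles are described last through their longest members and sums. Fibrillar collagens form the tensile fibres of muscle connective tissue, and their 6 loci, none of which passed in any comparison, summed to 35.1 and 29.4 kb in QSC, 25.1 and 27.8 kb in ASC, 28.1 and 28.2 kb in control siRNA and 26.7 and 28.7 kb in LncMyod siRNA. Col5a1, whose product helps to start collagen fibres, had the most covered length of them, with 11.3 and 10.6 kb in QSC, 8.29 and 10.9 kb in ASC, 12.3 and 12.8 kb in control siRNA and 12.99 and 12.6 kb in LncMyod siRNA. The cultured libraries were all above the isolated ones. Col1a1 and Col1a2, the chains of type I collagen, lay between 2.96 and 4.49 kb and between 1.41 and 3.88 kb.

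Col4a2 had the most covered length of all 45 loci, with 16.4 and 15.3 kb in QSC, 17.4 and 15.4 kb in ASC, 18.0 and 17.3 kb in control siRNA and 15.8 and 16.0 kb in LncMyod siRNA. Both control siRNA libraries lay above both QSC and both LncMyod siRNA libraries, and ASC overlapped each other group. Changes at Col4a2 ran from -0.14 to 0.15 without passing. Of its 31 regions held in QSC or ASC, 4 (12.9%) were specific to ASC and 5 (16.1%) to QSC, beside 8.65% and 12.3% of all regions. Of its 37 held in QSC or control siRNA, 10 (27.0%) were specific to control siRNA and 5 (13.5%) to QSC, beside 19.9% and 10.4%. It shares 3 regions with Col4a1. Col12a1, a collagen that sits on fibril surfaces, had 7.69 and 7.08 kb in QSC, 6.44 and 6.45 kb in ASC, 6.33 and 4.44 kb in control siRNA and 6.19 and 3.55 kb in LncMyod siRNA. QSC was highest, and 3 of its regions were specific to QSC and 2 to ASC between those groups.

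The laminins and other basement membrane genes summed to 52.9 and 50.7 kb in QSC, 53.6 and 54.0 kb in ASC, 50.7 and 47.8 kb in control siRNA and 48.6 and 51.7 kb in LncMyod siRNA. Lamc1, described above, was the largest and the only one past the threshold. Matrix glycoproteins summed to 20.1 and 21.9 kb in QSC and to 14.0 to 16.0 kb in the other 6 libraries. Without Svep1 the sums were 13.7 and 15.7 kb in QSC, 12.3 and 11.996 kb in ASC, 13.04 and 13.2 kb in control siRNA and 13.8 and 12.9 kb in LncMyod siRNA, so QSC and LncMyod siRNA overlapped. Their largest member, Sparc, had 5.67 and 6.35 kb in QSC, 5.90 and 5.73 kb in ASC, 5.04 and 6.29 kb in control siRNA and 5.44 and 5.65 kb in LncMyod siRNA, so the groups overlapped in each comparison made. Of its 12 regions 7 were held by all 8 libraries. Proteoglycans summed to 12.6 and 14.4 kb in QSC, 17.1 and 15.4 kb in ASC, 19.5 and 20.1 kb in control siRNA and 18.2 and 15.1 kb in LncMyod siRNA. Gpc6, the largest, made up 5.47 and 5.51 kb of these sums in QSC, 9.68 and 9.12 kb in ASC and 11.6 and 11.8 kb in control siRNA. In LncMyod siRNA it made up 11.1 and 9.30 kb. The changes of 2 of the 5 proteoglycan loci were positive from QSC to ASC, with a median of -0.26. From QSC to control siRNA 3 were positive, with a median of 0.14.

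Integrin alpha chains summed to 32.9 and 30.003 kb in QSC and to 36.1 to 38.6 kb in the other 6 libraries, and Itga9 was the largest. Without Itga9 the sums were 24.0 and 23.2 kb in QSC, 25.3 and 25.2 kb in ASC, 23.5 and 22.9 kb in control siRNA and 19.7 and 23.1 kb in LncMyod siRNA, and QSC overlapped control siRNA. Itga7 had 5.96 and 4.92 kb in QSC, 6.90 and 6.64 kb in ASC, 6.81 and 5.87 kb in control siRNA and 4.67 and 7.31 kb in LncMyod siRNA, and passed in no comparison. Integrin beta chains summed to 17.3 to 21.6 kb over all libraries. Itgb5, a partner of the alpha v chain, was the largest, with 9.20 and 9.18 kb in QSC, 10.1 and 9.82 kb in ASC, 12.1 and 11.1 kb in control siRNA and 9.33 and 12.6 kb in LncMyod siRNA. QSC was lowest, and both chr16:33862443-33863588 and chr16:33888994-33889529 were held by all libraries outside QSC. Itgb3, the platelet and vascular beta chain, came next after the loci past the threshold between QSC and control siRNA, at 0.85 (SE 0.24, limma adjusted p = 0.0506). Summed over all 45 loci, covered length was 229 to 244 kb in every library.

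Beneath these sums, the matrix gene loci held 587 merged regions. All 8 libraries held 172 of them, or 29.3%, beside 24.98% of all 141301 regions. A region was called specific to a group when both of its libraries held it and neither library of the other group did. From QSC to ASC, 37 of 428 regions (8.64%) were specific to ASC and 56 (13.1%) to QSC, beside 8.65% and 12.3% of all regions. Between ASC and control siRNA, 73 of 458 (15.9%) were specific to control siRNA and 21 (4.59%) to ASC, beside 15.6% and 3.52%. Between QSC and control siRNA, 94 of 485 (19.4%) were specific to control siRNA and 59 (12.2%) to QSC, beside 19.9% and 10.4%. Between the siRNA groups, 9 of 494 (1.82%) were specific to LncMyod siRNA and 10 (2.02%) to control siRNA, beside 2.66% and 1.72%. These shares lay near those of all regions. Without ASC replicate 2, the ASC-specific count was 69 against QSC and 46 against control siRNA, and the latter was 34 without ASC replicate 1. Between the siRNA groups, leaving out 1 library gave 14 to 56 regions specific to LncMyod siRNA and 11 to 57 specific to control siRNA.

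**Figure D5:**
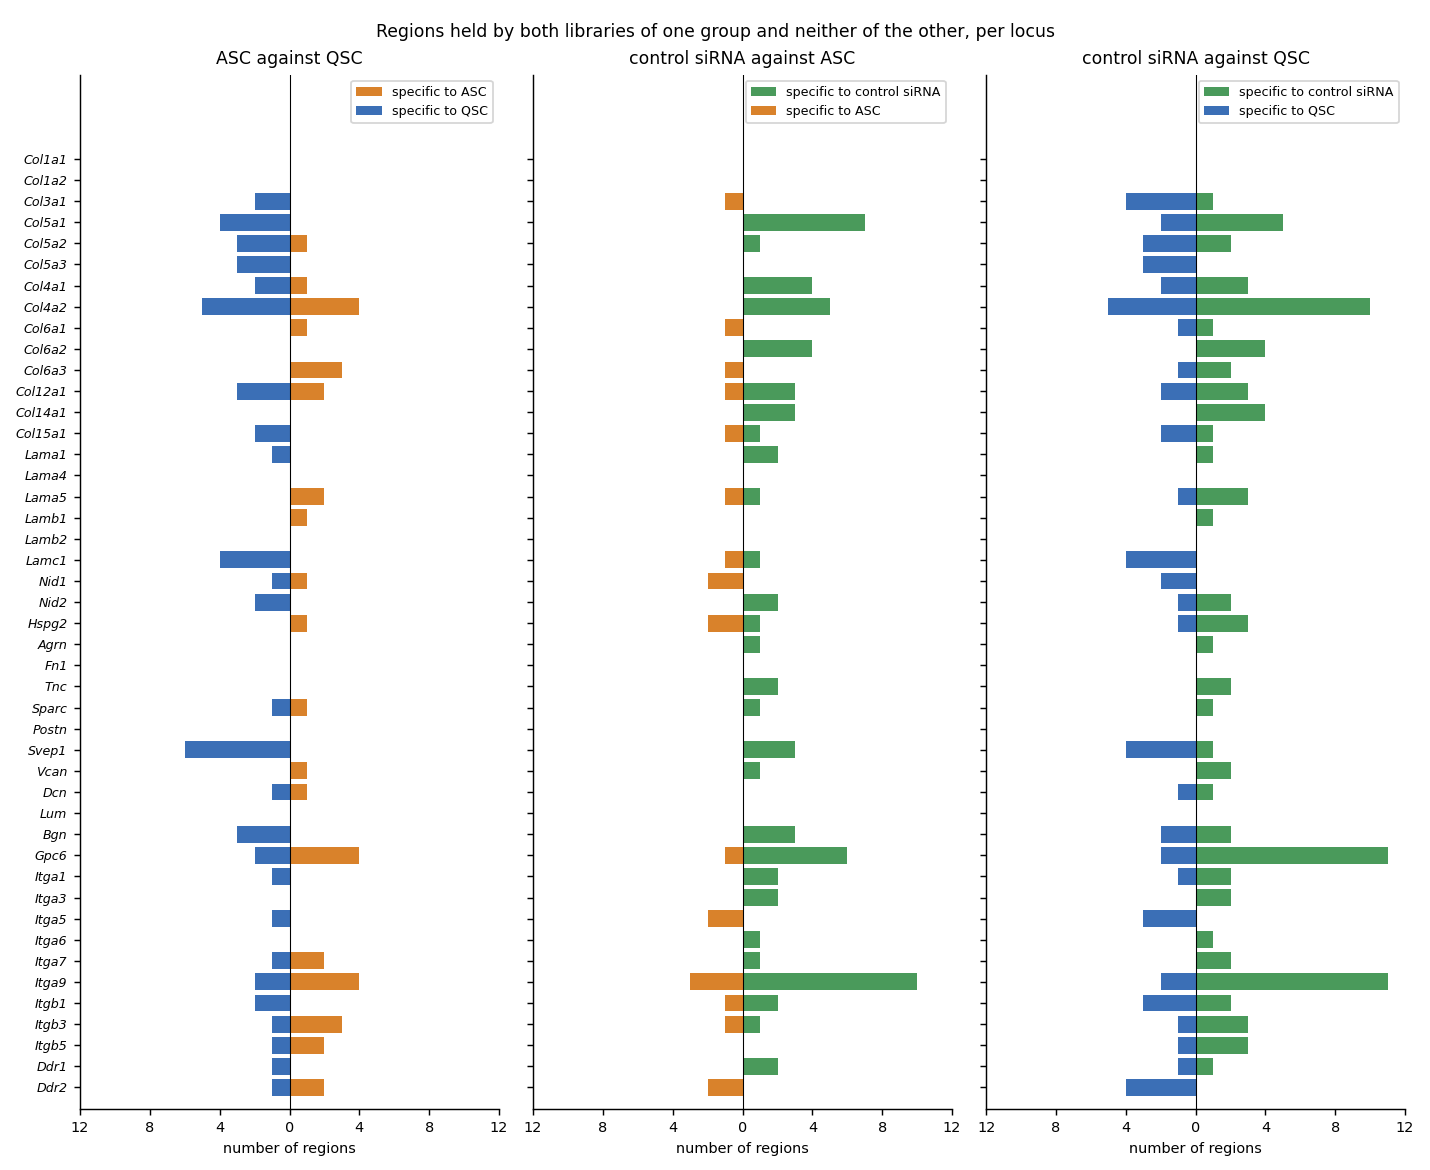
Bars give, for each of the 45 loci, the number of regions held by both libraries of one group and neither of the other, to the right for the first group named and to the left for the second. Itga9, Gpc6 and Col4a2 have the longest bars between QSC and control siRNA, with 11, 11 and 10 regions specific to control siRNA. These loci held 41, 27 and 38 merged regions.

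Over the 4 comparisons, the most specific regions were counted at Itga9 (34), Col4a2 (30), Gpc6 (27), Col5a1 (20), Svep1 (14) and Col12a1 (14), counting a region once for each comparison. Their loci held 41, 38, 27, 32, 15 and 16 merged regions in that order, and all 6 are genes over 100 kb. A share of all regions summed over the 4 comparisons was not computed, so the counts do not set these loci apart. By their full pattern over the groups, 36 regions were held by QSC alone, 24 by all groups but QSC, 22 by both cultured groups alone and 8 by both isolated groups alone. These were 6.13%, 4.09%, 3.75% and 1.36% of the matrix gene regions, beside 5.18%, 3.22%, 4.78% and 0.551% of all regions. Between QSC and ASC, 50 of the 56 QSC-specific and 32 of the 37 ASC-specific regions lay wholly or partly inside gene bodies. So did 137 of the 172 regions held by all libraries. The same share over all regions was not computed. At 299 regions (50.9%) the 2 libraries of at least 1 group disagreed, beside 56.6% of all regions.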

How the data were processed

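Accessible chromatin was measured in 8 libraries, each with its own list of broad peaks. The submitters' processing notes name MACS2 2.1.1, Bowtie2 2.3.2 and the build mm10, beside tools for trimming, sorting and intervals; the sources used here give no settings. For every deposited peak there is a fold enrichment over the background of that library, a −log10 p, a −log10 q and a display score, as the authors' peak caller gave them. Fold was used to describe peaks and −log10 q to filter them; the deposited score was not used.

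Gene positions and promoter windows came from RefSeq tables of GRCm38.p6. Covered bp per locus were divided by the library total, multiplied by the mean total, and analysed as log2(scaled bp + 500), a scale that understates changes at loci with little covered length. Group means were fitted to all 8 libraries together with limma 3.58.1 (trended prior), followed by Benjamini-Hochberg adjustment over 27938 loci in each comparison at a threshold of 0.05; the script was tested on simulated data. "Rose" and "fell" mean past that threshold. Peaks of all libraries were merged where they overlapped, and a library held a region with 1 bp of overlap. Loci that share peaks are not independent. Depth is unknown, so no counting interval is given.

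The genes, roles, markers (satellite, fibroadipogenic, leukocyte, endothelial, glial and mural cells), the wider list of 146 matrix genes and the tests were chosen with earlier results of these data known. Genes named with all values were those past the threshold, the one with the most covered length in each role, and the 6 with the most group-specific regions. Others were named by their place in order of p, or by the share of the locus covered, or after their values were seen (Col1a1, Col1a2, Nid1, Ddr1, Lamb1). Alternatives covered the scaling, pseudocount, filter, locus width, peak threshold, list length, peak number, libraries fitted, replicate block and each library left out. Python 3.11.15, numpy 2.4.6, pandas 2.3.3 and R 4.3.3 were used.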

Additional observations from a re-analysis of the deposited data

How the results depend on the processing

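Of 225 alternative values for the 15 changes past the threshold, 146 stayed past it in the same direction, 76 kept the direction without passing and 3 reversed: Itga9 from QSC to ASC at -log10 q of at least 5 (-0.43), Vcan from QSC to ASC by number of peaks (-0.12), and Col6a2 from QSC to control siRNA with 50 kb on both sides (-0.036). Their cause was not tested. Counts below are of loci past the threshold.

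ASC against QSC had 3580 loci, 1820 without scaling, 7086 with 50 kb on both sides, 1186 with only the 4 libraries fitted and 712 to 2997 with 1 library left out; of matrix loci 6, then 1, 10, 2 and 1 to 3. Control siRNA against ASC had 1116 loci, 368 without scaling, 1757 with 50 kb, 2066 at -log10 q of at least 5, 2979 with equal lists, 704 with only the 4 libraries and 0 to 707 with 1 library left out; of matrix loci 1, with 0 unscaled, 2 with 50 kb, 5 at the stricter q, 2 with equal lists, 3 by peak number and 0 to 1. LncMyod siRNA against control siRNA had 6 loci, 38 without scaling, 10 with quantile normalization, 10 with a 2000 bp pseudocount, 50 over the gene body alone, 3 with 50 kb, 14 at the stricter q, 23 with equal lists, 187 by peak number, 0 with only the 4 libraries and 0 to 343 with 1 library left out; of matrix loci 0, with 1 by peak number (Fn1) and 0 to 1 (Lamb1). Control siRNA against QSC had 4726 loci, 7848 with 50 kb and 1016 to 1291 with 1 library left out; of matrix loci 8, with 4 unscaled and 3 to 4. Leaving out 1 library leaves a group with 1, assumed to vary like the others.

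Regions specific to LncMyod siRNA against control siRNA numbered 9, 1 at the stricter q, 14 with 50% of the region covered and 14 to 56 with 1 library left out. Those specific to control siRNA numbered 10, 17 at the stricter q and 11 to 57. With 1 library left out, ASC-specific regions were 41 to 69 against QSC and 27 to 46 against control siRNA.

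With a replicate block, the paired fit gave 3193, 551, 0 and 4354 loci and 5, 1, 0 and 9 matrix loci in the 4 comparisons (ASC against QSC, control siRNA against ASC, LncMyod siRNA against control siRNA, control siRNA against QSC). Deviations of same-numbered libraries correlated at 0.043, 0.008, 0.022 and 0.010, so the numbers were not taken to pair the libraries. With no read counts, what depth limits is unknown.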

Other observations

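Among 146 further matrix genes, of which 144 were tested, 15 rose and 15 fell from QSC to ASC, 6 rose and 3 fell from ASC to control siRNA, none passed between the siRNA groups (limma; 14 had an unadjusted p under 0.05), and 18 rose and 21 fell from QSC to control siRNA. These made up 20.8%, 6.25%, 0% and 27.1% of the 144, beside 12.8%, 3.99%, 0.0215% and 16.9% of all 27938 loci, and whether the list differs from other loci was not tested. From QSC to ASC the genes first in order of p included Itga8, an integrin alpha chain, with 4.18 and 3.76 kb covered in QSC and 1.43 and 1.11 kb in ASC (log2 change -1.34, limma adjusted p = 0.00422). Itgae, an integrin alpha chain of lymphocytes, had 0.926 and 1.09 kb in QSC and 2.66 and 3.57 kb in ASC (1.25, limma adjusted p = 0.00639). Next were the laminin chain gene Lama3 (-0.71, limma adjusted p = 0.0104), the collagen gene Col6a6 (-0.83, limma adjusted p = 0.0105) and the fibulin gene Fbln2 (-0.89, limma adjusted p = 0.0138). At the 4 of these 5 loci that fell, the QSC libraries lay above the ASC libraries without overlap.

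In culture, Col19a1, a collagen linked to basement membrane zones, had 6.16 and 6.21 kb in ASC and 12.2 and 12.1 kb in control siRNA (0.92, limma adjusted p = 0.0148). Loxl1, a lysyl oxidase that cross-links elastic fibres, rose by 0.93 between those groups (limma adjusted p = 0.0279). Itgad, an integrin alpha chain gene, had 0.282 and 0 kb in ASC and 2.03 and 1.48 kb in control siRNA (1.84, limma adjusted p = 0.0206). It was at 0 in both QSC libraries and changed by 2.16 from QSC to control siRNA (limma adjusted p = 0.00432). Itgam, 1 of the 5 leukocyte markers of 10 that rose from QSC to control siRNA, lies on the same chromosome. It had 0.533 and 0.297 kb in ASC and 1.31 and 1.30 kb in control siRNA. Whether leukocytes had a part in the Itgad values was not tested. Itgae changed by 1.55 from QSC to control siRNA (limma adjusted p = 0.00349). From QSC to control siRNA, Ntn4, a netrin of basement membranes, fell from 13.8 and 13.4 kb to 7.17 and 4.99 kb (-1.12, limma adjusted p = 0.00689), and Prelp, a small leucine-rich proteoglycan, from 6.15 and 4.91 kb to 1.43 and 1.39 kb (-1.65, limma adjusted p = 0.00689). Matn1, for a cartilage matrilin, rose from 0.230 and 0.349 kb to 2.47 and 1.99 kb (1.79, limma adjusted p = 0.00414). Its locus shares 11.8 kb with that of the leukocyte marker Laptm5, which was at 0 in QSC and had 2.32 and 2.51 kb in control siRNA, so peaks in the shared stretch cannot be told apart.

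Of the remaining marker lists, 8 endothelial loci summed to 14.2 to 19.7 kb and 6 mural loci to 21.6 to 25.2 kb over the 8 libraries. The 6 glial loci, with Cdh19 at 0 in all, summed to 13.6 and 14.3 kb in QSC and 20.5 and 19.9 kb in ASC. In control siRNA they had 16.4 and 18.2 kb and in LncMyod siRNA 16.0 and 15.2 kb. Between QSC and ASC, 2 glial loci rose, beside 7.56% of all loci, and 1 endothelial and 1 mural locus fell, beside 5.25%. From QSC to control siRNA, 1 locus of each list rose, beside 9.96%, and 2 endothelial and 1 glial locus fell, beside 6.95%. From ASC to control siRNA, 1 glial locus fell, beside 1.72%.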
